A study of Mus musculus with 4 samples.

Results

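PRC1.6 is a variant Polycomb repressive complex, and its subunits are described here in mouse embryonic stem cells in which the RNA-binding protein hnRNP K was knocked down. The 10 genes Mga, Max, E2f6, Pcgf6, L3mbtl2, Rnf2, Ring1, Rybp, Yaf2 and Wdr5 were taken by symbol from a table of 22138 genes, and all 10 passed the filter on low values. The cells were TT2, a line of embryonic stem cells, female and C57BL/6xCBA by strain, grown without feeders in serum medium with LIF. They received either a control siRNA (2 libraries) or an siRNA against Hnrnpk (2 libraries), at 100 nM and then, 24 hours later, at 50 nM, and RNA was taken about 72 hours after the second transfection. Both groups therefore share the line, the medium and the double transfection, and a single line limits what the comparison covers. The series is titled for silencing by SETDB1, a histone H3 lysine methyltransferase, and its coordination by hnRNP K.

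Polycomb repressive complexes of the PRC1 type carry a RING E3 ligase that adds a single ubiquitin to histone H2A, and they are told apart by which PCGF protein pairs with that ligase. PRC1.6 is the form built on PCGF6. It carries sequence-specific DNA-binding subunits: the heterodimer of MGA and MAX, which recognises the E-box CACGTG, and the heterodimer of E2F6 and a DP protein, which recognises an E2F site. In embryonic stem cells the complex is known for holding germ cell and meiosis genes silent.

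Values are RPKM, reads scaled to gene length and to the depth of the library, so levels of different genes can be set beside each other. Hnrnpk itself was at 236 and 226 RPKM with control siRNA and at 68.0 and 70.5 RPKM with Hnrnpk siRNA, a log2 change of -1.73 (SE 0.0629); its transcript shares 50.5% of its length with other genes at 95% identity or more. Setdb1 was at 35.7 ± 0.633 RPKM (SD, n = 2) with control siRNA and 32.8 ± 0.672 with Hnrnpk siRNA, a log2 change of -0.12 (95% interval -0.26 to 0.02). Changes were tested with limma on log2(RPKM + 0.5) over the 12486 genes that averaged 0.5 RPKM or more, and a gene was called where its p, adjusted by Benjamini-Hochberg, was under 0.05. The smallest p that an exact permutation test of 2 libraries against 2 can give is 0.333. The series text calls the replicates biological, but nothing says that they came from separate cultures, so the p-values measure the spread between these libraries. In bulk RNA, fewer cells that express a gene and less of its RNA per cell cannot be told apart.

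Of the 10 subunits, 4 were called, against 67.2% of all genes tested. E2f6 and Rnf2 rose (32.2% of all genes tested were called higher), and Yaf2 and Mga fell (35.0% were called lower). Max, L3mbtl2, Pcgf6, Wdr5, Rybp and Ring1 were not called. The median log2 change of the 10 was 0.04, where that of all genes tested was -0.015. The sum of the 10 transcripts was 299.8 and 296 RPKM under control siRNA and 320.3 and 315 RPKM under Hnrnpk siRNA. The sum over all genes was also higher, at 359659 and 362836 RPKM against 377825 and 390467 RPKM. The sum of the 10 therefore does not show a larger share of all transcripts. The groups did not overlap for any of the 10, as for 84.7% of all genes tested: 6 subunits were higher in both Hnrnpk siRNA libraries (41.2% of all genes tested) and 4 lower in both (43.5%).

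The DNA-binding subunit E2f6 (chr12:16810963-16839742, plus strand, positions on GRCm38) had the largest change of the 10. E2F6 is an E2F protein that lacks the activation domain of its relatives and represses the genes it binds. E2f6 was at 11.3 and 12.4 RPKM under control siRNA and at 19.8 and 20.2 RPKM under Hnrnpk siRNA. Each library with Hnrnpk siRNA exceeded each control library, by more than the spread within either group. The ratio of the means was 1.69 and the log2 change 0.74 (SE 0.0711, limma adjusted p = 1.62e-05). A rise at least this large was seen in 7.55% of all genes tested. It was called under each of the 13 alternative settings, with log2 changes from 0.67 to 0.80.

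The partner of E2F6 moved the other way. Tfdp1, which encodes the DP protein that E2F proteins pair with to bind DNA, was at 144 and 155 RPKM with control siRNA and at 83.1 and 79.3 RPKM with Hnrnpk siRNA. Its log2 change was -0.87 (SE 0.0669, limma adjusted p = 3.89e-06), called under each of the 13 alternative settings. Tfdp1 shares 48.9% of its transcript with the copy Gm7390, and reads from the copy cannot be told apart here. At 81.2 RPKM with Hnrnpk siRNA, the Tfdp1 transcript still stood above the 20.02 RPKM of E2f6.

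Among the E2F genes, E2f6 and E2f5 were the genes called higher, while the 6 other E2F genes and Tfdp2 were called lower. Of the 8 genes in the list of E2f1 to E2f5, E2f7, E2f8 and Tfdp2, 1 was called higher and 7 lower, where 32.2% and 35.0% of all genes tested were, and the median log2 change was -0.54. E2f7 and E2f8, atypical E2F repressors, went from 7.30 to 4.01 RPKM and from 38.5 to 22.4 RPKM (log2 changes -0.79 and -0.77). E2f1 and E2f3, activators of the entry into S phase, had log2 changes of -0.61 and -0.56. E2f4, by far the most abundant of the family, fell from 309 to 236 RPKM. The transcript of E2f6 made up 2.66% and 2.93% of the summed RPKM of E2f1 to E2f8 under control siRNA and 5.88% and 6.09% under Hnrnpk siRNA. Without E2f4 those shares were 9.78% and 10.8% against 20.1% and 20.6%. E2f6 was thus a small part of the E2F transcripts in every library, and a larger part in both Hnrnpk siRNA libraries.

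Mga and Max form the other DNA-binding pair. MGA is a large protein with both a T-box and a basic helix-loop-helix zipper domain, and it is the scaffold on which the complex is assembled. Mga (chr2:119897228-119969581, plus strand) was at 19.2 and 19.3 RPKM with control siRNA and at 17.9 and 15.8 RPKM with Hnrnpk siRNA. Both Hnrnpk siRNA libraries were lower, and they lay further from each other than the control libraries did. On the log2 scale Mga changed by -0.19 (SE 0.0745, limma adjusted p = 0.0479), and without Hnrnpk siRNA replicate 2 it was -0.10 with an adjusted p of 0.368. It was called under 7 of the 13 alternative settings, so the call sits at the threshold.

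Max (chr12:76937269-76962201, minus strand) encodes the common partner of MYC, MXD and MGA proteins. It was at 43.8 and 44.7 RPKM with control siRNA and at 45.1 and 45.9 RPKM with Hnrnpk siRNA, a log2 change of 0.04 (95% interval -0.10 to 0.17). It was called under none of the 13 alternative settings, and the sign turned under quantile normalization. Max stood at 2.28 and 2.32 times the level of Mga under control siRNA and at 2.52 and 2.90 times under Hnrnpk siRNA. The level of E2f6 relative to Mga went from 0.590 and 0.641 to 1.11 and 1.28, so the order of these subunits by level changed over: E2f6 was below Mga in both control libraries and above it in both Hnrnpk siRNA libraries. That difference between the members was not tested.

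**Figure D1:**
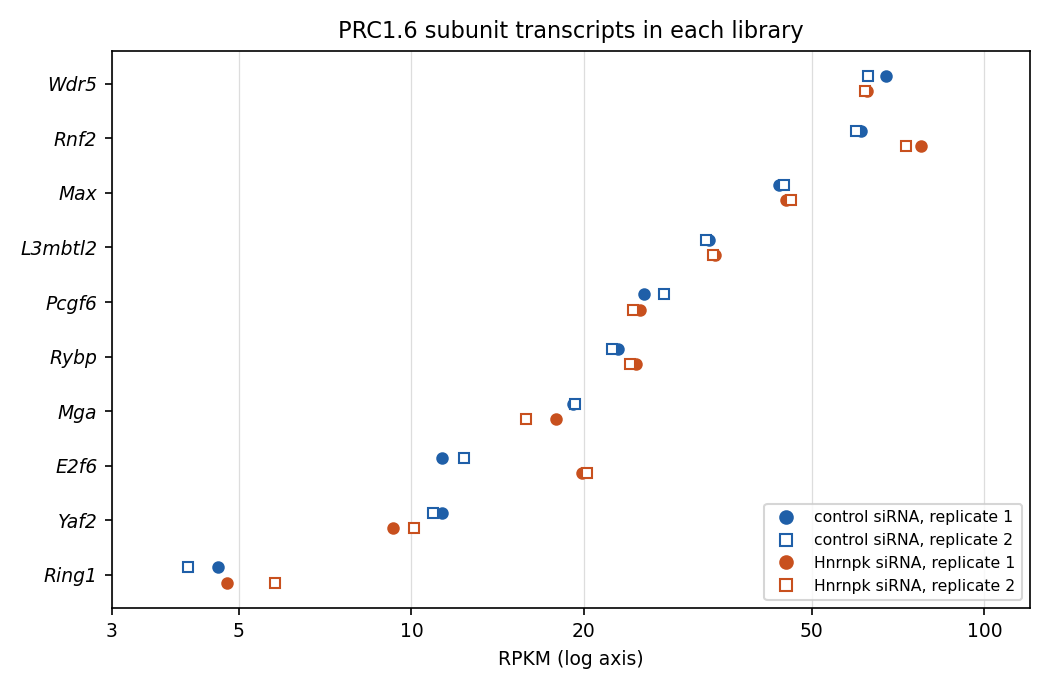
RPKM (log axis) of the 10 PRC1.6 subunit genes in each library, ordered by the control mean; blue marks are control siRNA, red marks Hnrnpk siRNA, circles replicate 1 and squares replicate 2. E2f6 moved from 11.3 and 12.4 RPKM to 19.8 and 20.2 RPKM, while most other genes shifted little.

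Of the 8 other partners of MAX, Myc, Mycn, Mycl1, Mxd1, Mxi1, Mxd3, Mxd4 and Mnt, 3 were called higher and 5 lower (32.2% and 35.0% of all genes tested), with a median log2 change of -0.39; without control replicate 1 these counts were 2 and 4. Mycn, the MYC gene with the highest control level, fell from 81.5 ± 3.49 to 41.6 ± 0.538 RPKM (SD, n = 2; log2 change -0.96, limma adjusted p = 1.56e-06). Mycl1 and Mxd3 went from 8.44 to 4.42 RPKM and from 5.91 to 3.10 RPKM. Myc was at 18.3 and 34.3 RPKM under control siRNA and 39.2 and 37.8 RPKM under Hnrnpk siRNA. Its log2 change of 0.61 (limma adjusted p = 0.0293) rests on control replicate 1, without which it was 0.16 with an adjusted p of 0.0842. The sum of Myc and Mycn was 97.4 and 118 RPKM with control siRNA and 81.1 and 79.0 RPKM with Hnrnpk siRNA. Relative to Mycn, Mga stood at 0.242 and 0.230 under control siRNA and 0.426 and 0.384 under Hnrnpk siRNA.

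Pcgf6 (chr19:47033617-47050906, minus strand) encodes the PCGF protein that defines the complex. It was at 25.4 and 27.6 RPKM with control siRNA and at 25.04 and 24.4 RPKM with Hnrnpk siRNA, and it was not called (log2 change -0.10, 95% interval -0.25 to 0.05). Its share of the summed RPKM of the 6 PCGF genes was 18.5% and 20.4% under control siRNA and 17.0% and 16.4% under Hnrnpk siRNA. L3mbtl2 (chr15:81663889-81688315, plus strand), an MBT-domain protein that compacts chromatin, was at 33.0 and 32.6 RPKM against 33.9 and 33.6 RPKM. Its log2 change was 0.04 (95% interval -0.10 to 0.18), with the sign turned under quantile normalization. L3mbtl2 overlaps Chadl on the opposite strand over 17.2% of its exonic bases, and no source used here states whether the libraries keep the strand. For both of these specific subunits the interval leaves out a change as large as that of E2f6.

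The ligase itself is RNF2 (RING1B) or its paralog RING1 (RING1A), which are shared by all PRC1 forms. Rnf2 (chr1:151458004-151500955, minus strand) was at 61.0 and 59.8 RPKM with control siRNA and at 77.4 and 72.9 RPKM with Hnrnpk siRNA. Both Hnrnpk siRNA libraries were higher, and the ratio of means was 1.24 (log2 change 0.31, SE 0.0627, limma adjusted p = 0.00162). The rise was called under each of the 13 alternative settings, but it was 0.18 (adjusted p = 0.0232) once the trend of change with GC content was removed. A rise at least as large was seen in 24.0% of all genes tested. Ring1 (chr17:34020792-34024680, minus strand) had the lowest level of the 10 in every library, at 4.59 and 4.08 RPKM against 4.77 and 5.78 RPKM. Its log2 change of 0.25 (SE 0.103) was of a size like that of Rnf2 but not called (limma adjusted p = 0.0512), and 7 of the 13 alternative settings called it. The level of Rnf2 relative to Ring1 was 13.3 and 14.7 under control siRNA and 16.2 and 12.6 under Hnrnpk siRNA, so the groups overlapped in this ratio. Their sum was 65.5 and 63.9 RPKM against 82.2 and 78.7 RPKM.

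RYBP and YAF2 are alternative subunits that bind the RING ligase and stimulate its activity, and they take the place held by CBX proteins in canonical PRC1. Rybp (chr6:100228565-100287485, minus strand) was at 22.9 and 22.4 RPKM with control siRNA and at 24.7 and 24.1 RPKM with Hnrnpk siRNA (log2 change 0.10, 95% interval -0.04 to 0.25, not called). It shares 15.1% of its transcript with the copy Rybp-ps. Yaf2 (chr15:93284278-93336935, minus strand) was at 11.3 and 10.9 RPKM against 9.27 and 10.1 RPKM. The fall of Yaf2 (log2 change -0.19, SE 0.0748, limma adjusted p = 0.0465) was called under 6 of the 13 alternative settings; without Hnrnpk siRNA replicate 1 it was -0.13 with an adjusted p of 0.316. The level of Rybp relative to Yaf2 was 2.02 and 2.05 under control siRNA and 2.66 and 2.38 under Hnrnpk siRNA. Their sum hardly differed, at 34.2 and 33.3 RPKM against 33.9 and 34.2 RPKM.

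Wdr5 (chr2:27515157-27536535, plus strand) encodes a WD-repeat adaptor that also serves the MLL family of histone methyltransferases. It was the most abundant of the 10 with control siRNA, at 67.3 and 62.8 RPKM, and was at 62.5 and 61.9 RPKM with Hnrnpk siRNA (log2 change -0.06, 95% interval -0.21 to 0.08, not called). In both Hnrnpk siRNA libraries Rnf2 stood above it. From the highest level down, the order with control siRNA was Wdr5, Rnf2, Max, L3mbtl2, Pcgf6, Rybp, Mga, E2f6, Yaf2 and Ring1, and only E2f6 and Yaf2 overlapped as neighbours. With Hnrnpk siRNA it was Rnf2, Wdr5, Max, L3mbtl2, Pcgf6, Rybp, E2f6, Mga, Yaf2 and Ring1, where Pcgf6 and Rybp overlapped. E2f6 passed Mga and Rnf2 passed Wdr5, and the other subunits kept their places.

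Besides Tfdp1, the complex carries histone deacetylases and the heterochromatin protein HP1 gamma (Cbx3). Of these 4 further subunits 1 was called higher and 2 lower, a share called near the 67.2% of all genes tested, with a median log2 change of -0.14. Hdac2 rose from 34.3 and 33.4 RPKM to 41.1 and 39.1 RPKM (log2 change 0.24, SE 0.0628, limma adjusted p = 0.00727), a call lost when the GC trend was removed (log2 change 0.15, adjusted p = 0.053) or when replicate 1 of Hnrnpk siRNA was left out (0.20, adjusted p = 0.0595). Hdac1 fell from 47.6 and 50.5 RPKM to 43.0 and 44.0 RPKM (log2 change -0.17, limma adjusted p = 0.034), called under 8 of the 13 alternative settings. Cbx3 was at 7.11 and 7.45 RPKM against 6.81 and 6.56 RPKM and was not called (95% interval -0.28 to 0.05). With the GC trend removed Cbx3 was called lower (log2 change -0.26, limma adjusted p = 0.00806). Hdac1 shares 71.1% of its transcript and Cbx3 33.2% with copies elsewhere, so these values are uncertain.

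**Figure D2:**
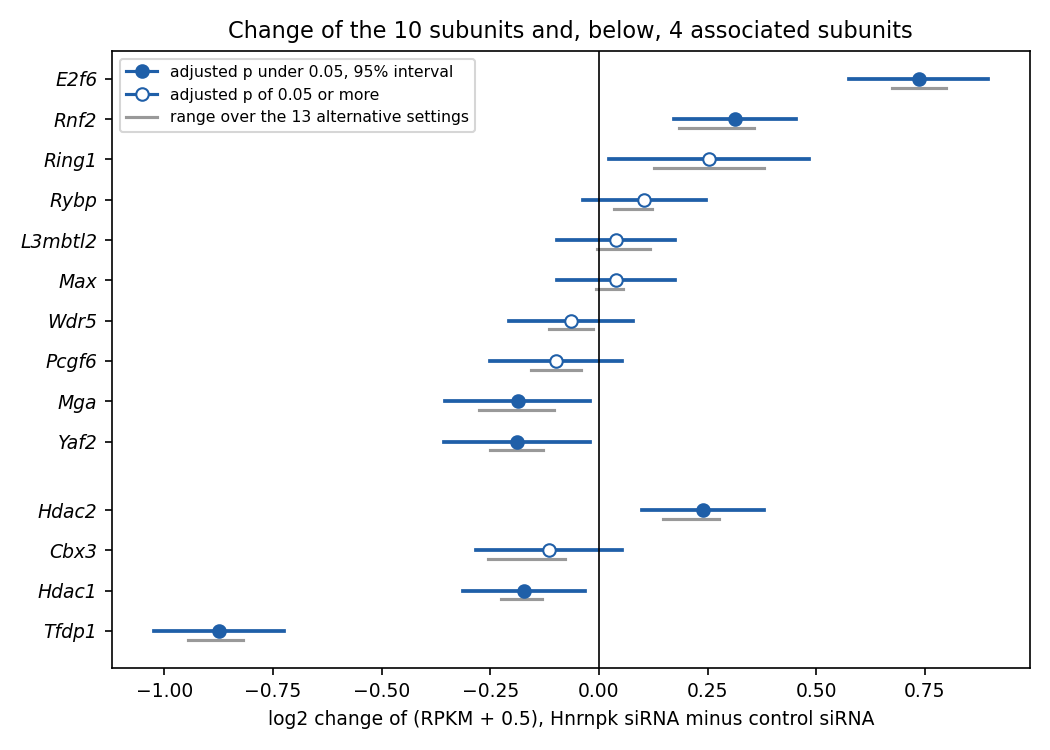
Log2 change of (RPKM + 0.5), Hnrnpk siRNA minus control siRNA, for the 10 subunits and 4 associated subunits, with 95% intervals from limma as blue bars and the range over 13 alternative settings as grey bars; filled marks have an adjusted p under 0.05. E2f6 at 0.74 and Tfdp1 at -0.87 lie far from the rest, which span -0.19 to 0.31.

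Subunits of the other PRC1 forms give the setting for the shared ligase. Of 20 such genes, 6 were called higher, 5 lower and 9 were not called; the share called, 55%, was below the 67.2% of all genes tested. They had a median log2 change of 0.03 and a range of -1.25 to 1.22. Bmi1 (PCGF4) rose from 0.899 ± 0.0854 to 2.76 ± 0.0341 RPKM and Cbx8 from 0.337 ± 0.0148 to 1.01 ± 0.00424 RPKM (SD, n = 2), both subunits of canonical PRC1 at low levels in these cells. Bmi1 shares 73.9% of its transcript with copies. Cbx8 passed the filter only through the Hnrnpk siRNA libraries, so the filter fixed the direction of its call. Phc1, a Polyhomeotic subunit of canonical PRC1, fell from 349 ± 2.47 to 190 ± 5.95 RPKM (log2 change -0.87, limma adjusted p = 3.35e-06), and Auts2, a partner of PCGF5 and PCGF3 complexes, from 3.05 ± 0.393 to 0.993 ± 0.104 RPKM. The level of Pcgf6 relative to Pcgf2, the most abundant PCGF gene, was 0.320 and 0.363 under control siRNA and 0.288 and 0.280 under Hnrnpk siRNA.

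**Figure D3:**
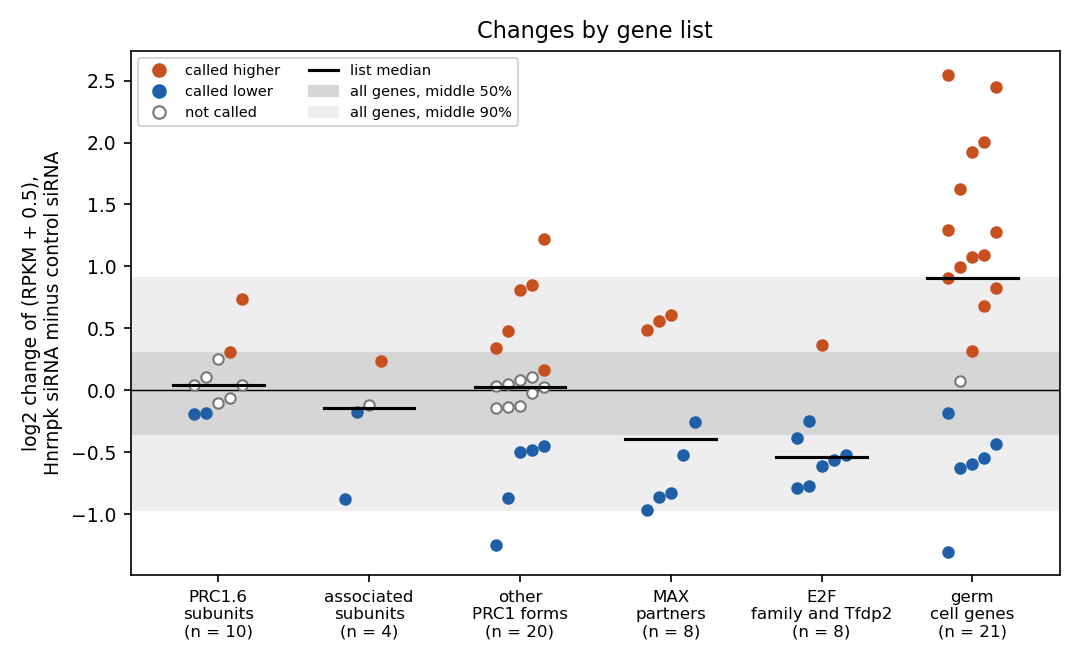
Log2 change of (RPKM + 0.5), Hnrnpk siRNA minus control siRNA, of each tested gene in 6 lists; red points were called higher, blue lower and open points not called, the black line is the list's median, and the grey bands run from the 25th to the 75th and from the 5th to the 95th percentile of all genes tested. The 10 subunits lie within the inner band apart from E2f6 and Rnf2, and the 21 germ cell genes spread from -1.30 to 2.55.

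The germ cell list holds genes known in other work as targets of PRC1.6 or E2F6 or as meiosis genes. Of 22 genes in the table, 21 passed the filter, and of those 14 were called higher, 6 lower and 1 was not called, where 32.2% of all genes tested were called higher and 35.0% lower. Stra8, 1 of the 6 called lower, sat at the threshold (log2 change -0.18, limma adjusted p = 0.0481). It was called under 5 of the 13 alternative settings. The median log2 change was 0.90, against -0.015 for all genes tested, whose 95th percentile was 0.91. The list was composed with earlier results of these data known, so its direction is a description. Brdt passed the filter only through the Hnrnpk siRNA libraries and Smc1b only through the control libraries. The filter thus fixed the direction of those calls. The list holds promoters with an E-box, with the letters of an E2F site, with both and with neither, and 6 promoters are printed to show the first 3 kinds. Each run is the 150 bases before the transcription start, 5′ to 3′ on the gene's strand, from RefSeq on GRCm38.p6; capitals mark the E-box CACGTG and the E2F letters GCGGGAA or their reverse complement TTCCCGC. These 6 genes were chosen after their values were seen. For 5 of the 6, bases just after the RefSeq start were found in a GENCODE transcript of the gene on the same strand; for Tuba3a they were not, and its GENCODE gene begins 39 bases further downstream, so its motif distance depends on the start used.
Slc25a31 (chr3:40708721-40708870, plus strand): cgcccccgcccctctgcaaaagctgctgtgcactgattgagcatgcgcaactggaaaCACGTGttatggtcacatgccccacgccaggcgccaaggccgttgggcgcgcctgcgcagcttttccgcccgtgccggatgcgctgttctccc
Taf7l (chrX:134476491-134476640, minus strand): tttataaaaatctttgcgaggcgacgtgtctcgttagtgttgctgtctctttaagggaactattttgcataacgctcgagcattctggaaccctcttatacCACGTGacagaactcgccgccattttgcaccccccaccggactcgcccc
Hormad1 (chr3:95559527-95559676, plus strand): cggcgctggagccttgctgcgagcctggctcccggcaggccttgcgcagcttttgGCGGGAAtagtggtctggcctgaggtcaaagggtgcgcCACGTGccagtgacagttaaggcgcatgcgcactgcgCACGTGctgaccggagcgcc
Sycp3 (chr10:88459437-88459586, plus strand): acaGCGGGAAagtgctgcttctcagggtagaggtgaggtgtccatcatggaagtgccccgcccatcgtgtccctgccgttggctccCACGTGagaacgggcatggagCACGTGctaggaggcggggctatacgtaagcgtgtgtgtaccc
Smc1b (chr15:85131958-85132107, minus strand): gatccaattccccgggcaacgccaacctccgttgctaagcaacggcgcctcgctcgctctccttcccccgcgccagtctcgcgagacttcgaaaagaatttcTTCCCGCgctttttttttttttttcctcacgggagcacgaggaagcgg
Tuba3a (chr6:125286082-125286231, minus strand): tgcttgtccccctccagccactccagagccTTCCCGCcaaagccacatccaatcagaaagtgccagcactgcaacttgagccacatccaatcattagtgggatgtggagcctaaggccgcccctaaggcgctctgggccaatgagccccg

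Slc25a31, a mitochondrial ADP/ATP carrier of the testis, and Taf7l, a testis form of a TFIID subunit, carry an E-box 93 and 49 bases before the start. Slc25a31 also has the E2F letters 20 bases after the start, outside the printed stretch, so its window holds both motifs. Slc25a31 rose from 1.17 and 1.43 RPKM to 10.3 and 9.71 RPKM (log2 change 2.55, SE 0.095, limma adjusted p = 7.72e-08). Taf7l rose from 0.541 and 0.628 RPKM to 5.61 and 5.25 RPKM (log2 change 2.45, SE 0.0919). Both were low under control siRNA. Hormad1, a meiotic chromosome axis protein, and Sycp3, of the synaptonemal complex, carry both motifs in the printed stretch, with a pair of E-boxes each. Ddx4, the germ cell RNA helicase VASA, has both motifs in its window too. Ddx4 rose from 8.98 and 10.6 RPKM to 24.7 and 24.1 RPKM. Hormad1 rose from 4.05 and 4.38 RPKM to 10.2 and 8.94 RPKM, though it shares 61.0% of its transcript with Gm15529. Sycp3 rose from 3.19 and 3.27 RPKM to 5.95 and 5.04 RPKM, and 52.2% of its exonic bases overlap Chpt1.

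Smc1b and Tuba3a, genes with the E2F letters and no E-box, moved down. Smc1b, the meiotic cohesin subunit, fell from 1.29 and 1.11 RPKM to 0.192 and 0.186 RPKM (log2 change -1.30, limma adjusted p = 4.16e-06). Smc1b passed the filter only through the control libraries, so the filter fixed the direction of its call. Tuba3a, a testis alpha-tubulin, fell from 58.4 and 46.9 RPKM to 33.1 and 34.3 RPKM (log2 change -0.63); it shares 95.6% of its transcript with Tuba3b, so the values of both are uncertain. Gm1564, now named Meioc and needed to maintain meiotic prophase, fell from 8.19 and 7.30 RPKM to 5.34 and 4.92 RPKM.

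Both motifs were searched as exact letters on both strands in the RefSeq window from 250 bases before to 50 after the start, and no occurrence of one overlapped the other. An E-box was found in the windows of 8.09% of 27025 genes and the E2F letters in those of 5.29%. Of the 20 tested germ cell genes with a window, 11 had an E-box (55%), of which 10 were called higher and 1, Stag3, lower, with a median log2 change of 1.09; 32.2% of all genes tested were called higher and 35.0% lower. The E2F letters were in 9 windows (45%). Of the 5 genes with both motifs 4 were called higher, and of the 4 with the E2F letters alone none was called higher and 3 were called lower, with a median of -0.59; Tuba3a and Tuba3b, which share most of their transcript, are 2 of these 4. Neither motif was in 5 windows, of which 4 genes were called higher, among them Dazl (2.77 and 2.50 RPKM to 11.6 and 11.2 RPKM) and Tex101 (1.44 and 1.70 RPKM to 6.80 and 8.91 RPKM). The list was drawn in part from known targets and otherwise from meiosis genes, so the share of genes with a motif is not independent of the complex. Brdt, with an E-box, and Smc1b, with the E2F letters alone, passed the filter only through the group where each was higher. Gm1564, with the E2F letters alone, has its window at chr11:102665335-102665634, inside its GENCODE gene, which begins at 102663716. The windows of Tex101 (chr7:24672001-24672300) and Stra8 (chr6:34920698-34920997), with neither motif, also lie inside their genes, after the GENCODE 5′ ends at 24676675 and 34920163. The motif class of these genes may thus depend on the start used. The difference between the motif groups was not tested. Of the 8 subunit genes with a window, Max alone had an E-box and none had the E2F letters.

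**Figure D4:**
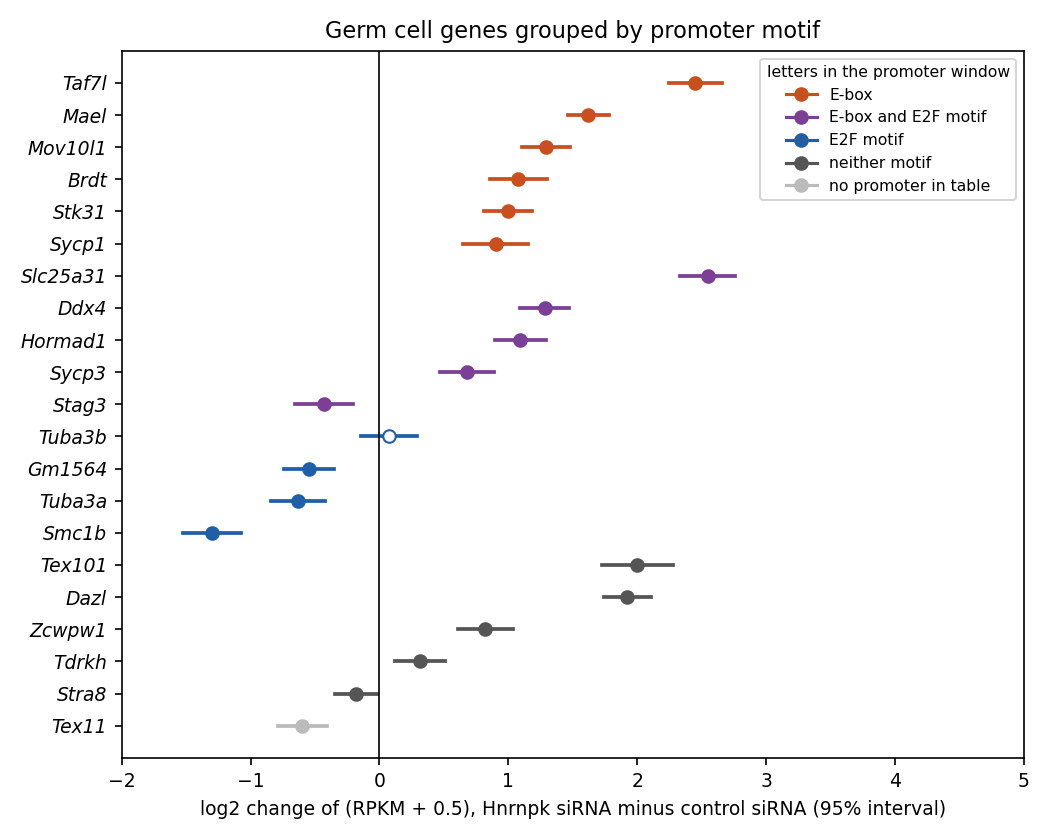
Log2 change of (RPKM + 0.5), Hnrnpk siRNA minus control siRNA, with 95% intervals from limma, for the 21 tested germ cell genes, coloured by which motif letters lie in the promoter window; the open mark was not called. The genes with an E-box lie at or above 0.68 except Stag3 at -0.43, and the 4 genes with the E2F letters alone lie between -1.30 and 0.07. The windows of Gm1564, Tex101 and Stra8 lie inside their GENCODE genes, so their class may depend on the start used.

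Other germ cell genes of the list filled out the range. Mael and Mov10l1, both of the piRNA pathway, rose from 8.30 and 9.07 RPKM to 27.4 and 28.1 RPKM and from 2.38 and 2.56 RPKM to 6.94 and 6.57 RPKM. Tex11, an X-linked meiosis gene, fell from 5.97 and 5.81 RPKM to 3.93 and 3.53 RPKM. Markers of other cell types moved in the same libraries. Across all genes tested 32.2% were called higher and 35.0% lower. Of 5 tested primitive endoderm markers 5 were called higher. Pdgfra, at 0.191 and 0.148 RPKM with control siRNA, passed the filter only through the Hnrnpk siRNA libraries. The 9 primitive endoderm markers in the table summed to 5.30 and 5.23 RPKM with control siRNA and 30.6 and 31.3 with Hnrnpk siRNA. Ttr was at 0 in 1 library. Of 7 tested trophectoderm markers 6 were called higher and 1 lower, and the 9 summed to 77.0 and 73.9 against 102 and 107 RPKM. Of 6 tested genes of the 2-cell-like state 6 were called higher, and the 8 summed to 0.555 and 0.539 against 37.1 and 44.9 RPKM. All 6 passed the filter only through the Hnrnpk siRNA libraries, so the filter fixed the direction of these calls. Of 10 embryonic stem cell markers 2 were called higher and 4 lower. The 60% called was near the 67.2% of all genes tested, and their median log2 change was -0.15. They summed to 4094 and 3935 RPKM with control siRNA and 4699 and 5022 RPKM with Hnrnpk siRNA, of which Dppa5a alone held 1320 and 1276 against 2164 and 2451 RPKM. The 9 fibroblast markers summed to 9.75 and 8.34 against 4.29 and 4.50 RPKM. Most of that sum was Thy1, at 6.90 and 5.20 against 2.22 and 2.28 RPKM, and Col1a1, at 2.46 and 2.68 against 1.73 and 1.86 RPKM. Of the 9, 7 were under 0.5 RPKM in every library, and Fap was at 0 in all libraries. The part of these other cell states in the changes of E2f6, Rnf2, Tfdp1 and the germ cell genes was not tested.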

How the data were processed

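RNA was sequenced from TT2 embryonic stem cells given control siRNA or Hnrnpk siRNA, 2 libraries each. The RPKM values were made by the authors, per gene and library, and used as deposited. Per the submitters' processing notes BWA, SAMtools and build mm9 were used; versions, the counting step and strandedness were not given in the sources used here. Labels describe the RNA both as poly(A)-selected and as depleted of ribosomal RNA. Whole reads were not recovered from the RPKM values, so no count model was used. Relative depths read from the steps of low values were 1, 0.982, 0.891 and 0.882 in control 1 and 2 and Hnrnpk 1 and 2. Length times RPKM over that step gave at least 1612 units behind any subunit's value in a library, where a unit may be a read or a pair.

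The values were analysed as log2(RPKM + 0.5), a scale that understates the change of low genes, for genes averaging 0.5 RPKM or more. Hnrnpk siRNA was tested against control siRNA with limma 3.58.1 under R 4.3.3 (two-sided, mean-variance trend, Benjamini-Hochberg over the genes tested), and the procedure was tested on simulated data. The simulation changed only a small share of the genes, where 67.2% were called here. It therefore does not show how often calls are wrong in these data. The alternatives were 0.1 or 1 RPKM added in place of 0.5, a filter at 1 RPKM or none, median-ratio scaling, quantile normalization, removal of a GC trend, no mean-variance trend, a replicate block, and each library left out in turn. Same-numbered libraries did not deviate together (correlation 0.0267, 2 pairs), so the numbers were not taken to pair them.

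Positions and transcripts came from GENCODE M21 (GRCm38), which held 92.8% of the table's identifiers, and not from mm9. Transcript copies were found with BLAST 2.17.0 at 95% identity over at least 100 bases. Promoters came from RefSeq (GRCm38.p6), matched by symbol or identifier for 8 of the 10 subunits. The subunit proteins were not compared here.

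The subunits and the lists were chosen with earlier results of these data known. The genes to be named were Hnrnpk, Setdb1, every PRC1.6 subunit, up to 6 germ cell genes called higher and 4 called lower with the lowest p, and in each other list up to 4 called genes with the largest change. Ddx4, Hormad1, Sycp3, Stag3, Stra8, E2f4, E2f5, Tfdp2, Pcgf2 and the marker genes are named besides, chosen with their values in view.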

Additional observations from a re-analysis of the deposited data

How the results depend on the processing

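E2f6, Rnf2 and Tfdp1 kept their direction and their call under all 13 alternatives, and of 492 fits of 38 named genes 459 kept both. Among all genes tested, 51.3% were called without the filter, 68.0% with median-ratio scaling, 66.3% without the mean-variance trend and 68.1% with quantile normalization. The main setting called 67.2%. The 2 lower calls among the subunits, Mga and Yaf2, did not hold throughout. With limma the number called lower was 0 without the filter, 0 with median-ratio scaling, 0 without the mean-variance trend and 1 with quantile normalization, where 2, 1, 2 and 1 had an unadjusted p under 0.05; leaving out single libraries gave 0 to 1, with 1 at an unadjusted p under 0.05 each time. Mga was -0.19, -0.17 and -0.19 under the first 3 of these, and -0.27 to -0.10 with single libraries left out. Yaf2 was -0.19, -0.17, -0.19 and, with quantile normalization, -0.16, and -0.25 to -0.13 with single libraries left out. Ring1 became called with 0.1 RPKM added (0.27), median-ratio scaling (0.27), quantile normalization (0.33) and the GC trend removed (0.37), and ranged from 0.13 to 0.38 with single libraries left out. Max and L3mbtl2 turned to -0.0057 and -0.0050 with quantile normalization. Among the 4 further subunits, 1 was called lower with median-ratio scaling and 1 without the trend. With the GC trend removed limma called 0 higher (1 at an unadjusted p under 0.05) and 3 lower, the added one being Cbx3, and their median was -0.21. Leaving out single libraries gave 0 to 1 higher, the 0 without Hnrnpk siRNA replicate 1 (1 at an unadjusted p under 0.05), and 1 to 2 lower. The median of the E2F list was -0.44 with the GC trend removed. That of the germ cell list was 1.07 and 0.76 with 0.1 and 1 RPKM added, 1.003 with quantile normalization, 0.72 with the GC trend removed and 0.76 to 1.04 with single libraries left out. The cause was not tested.

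With the replicate block, 4162 genes were called higher and 4460 lower, against 4025 and 4371 without it, and 5 subunits were called, the added one being Ring1 (0.25, adjusted p = 0.0259). The share called was 69.1% of all genes tested, against 67.2% without the block. The numbers of libraries are shared between groups without a stated pairing.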
